A study of Mus musculus with 12 samples.

Results

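The nuclear-encoded genes of the respiratory chain were compared between slowly and rapidly dividing basal cells of the mouse palate. Members were the genes of the count table whose symbols begin as the subunits of complexes I to V are named (Nduf with a, b, c, s or v and a number, Sdha to Sdhd, Uqcr, Cox4 to Cox8, and Atp5). This rule took 83 of 23420 genes, of which 36 carry complex I names, 4 complex II, 8 complex III, 18 complex IV and 17 complex V. No mitochondrially encoded gene has a row in the table, so the subunits that the mitochondrion makes itself were not analysed here. A few names matched the rule although their products are known for other roles: Atp5s and Atp5sl are not subunits of ATP synthase, Cox7a2l joins complexes III and IV into supercomplexes, and Ndufa4 is now placed in complex IV. They were kept where their names put them.

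The respiratory chain sits in the inner mitochondrial membrane. Complexes I and II take electrons from NADH and succinate, complex III passes them to cytochrome c, complex IV hands them to oxygen, and complex V (ATP synthase) uses the resulting proton gradient to make ATP. Most subunits are encoded in the nucleus and imported. Epithelial stem and progenitor cells of several tissues are known to balance this route of ATP supply against glycolysis, which is the background against which the genes were examined here.

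All mice were FVB animals heterozygous for both K5-tTA and tetO-H2B-GFP, transgenes that put a GFP-tagged histone under a tetracycline-controlled promoter driven from the keratin 5 promoter. After a doxycycline chase of 14 days, which stops new label so that cell division dilutes it, CD49f-positive epithelial cells of the hard palate were sorted into GFP-HI cells (labelled infrequently dividing) and GFP-LO cells (labelled frequently dividing). Each of 6 mice, coded B1M, B3M, B4M, B5M, B7F and B7M, gave 1 library of each fraction. The mice were 49 days old except B7F, which was 71 days old. The groups therefore share genotype, strain and chase and differ in retained label, which also depends on how strongly a cell had expressed keratin 5 driven label at the start.

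Library totals ran from 6678444 to 10547665 counts, of which the ribosomal RNA precursor Rn45s held 31.5% to 59.8%. The respiratory chain genes held 27508 to 54041 counts per library. Mouse B4M had the highest Rn45s shares of its fractions, 59.8% in GFP-HI and 51.3% in GFP-LO. The libraries of B1M and the GFP-HI library of B3M detected the fewest genes, 12312 to 13101 of up to 19023. Markers of basal keratinocytes were high throughout: their 6 genes summed to 13812 to 22527 CPM (counts relative to the TMM-scaled total of their library) in GFP-HI and 16402 to 23401 CPM in GFP-LO, and Krt14 alone averaged 10198 ± 2894 CPM (SD, n = 6) in GFP-HI. Of 7 fibroblast genes, Dcn was the only one called, lower in GFP-HI in all 6 mice. The others had low counts and higher means in GFP-HI. The collagen genes Col1a1, Col1a2 and Col3a1 each averaged under 3 CPM in both fractions. Taking GFP-HI first, Col1a1 was at 2.88 ± 1.84 and 0.878 ± 0.714 CPM, and Col1a2 at 2.60 ± 2.10 and 0.852 ± 0.337 CPM (SD, n = 6). Col3a1 was at 0.464 ± 0.393 and 0.268 ± 0.220 CPM, and Pdgfra, Lum and Dpt averaged at most 0.194 CPM. Suprabasal keratinocyte markers, 8 genes, summed to 1193 to 3594 CPM in GFP-HI and to 1239 to 2528 CPM in GFP-LO, with 0 of them called. Their sum was higher in GFP-HI in 2 of the 6 mice. Taking GFP-HI first, Krt10 averaged 142 ± 136 and 65.7 ± 54.7 CPM, and Krt13 670.3 ± 436 and 458 ± 259 CPM (SD, n = 6). Krt76, the most abundant of them, went the other way, at 1151 ± 491 and 1240 ± 242 CPM. Krt4 and Krt1 also had lower means in GFP-HI, and the remaining markers had higher ones. Immune markers summed to at most 26.3 CPM, and Hba-a1 of red cells was at 0 in every library.

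No respiratory chain gene differed between GFP-HI and GFP-LO cells at an adjusted p under 0.05. Of the 83 genes, 75 had enough counts to be tested, and edgeR's quasi-likelihood test with mouse as a block called 0 of them higher and 0 lower. Over all 11719 genes tested, the same test called 0.469% higher and 0.0597% lower. DESeq2 also called 0 of the 75. At an unadjusted p under 0.05, edgeR had 3 respiratory chain genes higher in GFP-HI (Ndufa5, Cox7a2 and Cox7a2l) and 0 lower, beside 4.3% and 2.94% of all tested genes. The smallest adjusted p among the 75 was 0.601. In no gene of the set did the GFP-HI libraries all lie on one side of the GFP-LO libraries, as was the case for 0.0683% of all tested genes in the higher direction and 0.128% in the lower. In sorted pools such as these, fewer cells of a type and less RNA per cell cannot be told apart.

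The intervals were narrow enough to limit the size of a difference for most of the genes. The 95% interval of the log2 fold change (GFP-HI over GFP-LO) lay within 1 of 0 in 71 of the 75 genes and within 0.5 of 0 in 45. The median distance from the value to either end was 0.318. Ndufb4, Ndufb7, Atp5l and Atp5s were the exceptions whose intervals passed 1; that of Atp5s ran from -1.69 to 0.65. Fitted values ran from -0.52 in Atp5s to 0.47 in Ndufa5, with a median of 0.05 beside -0.02 for all tested genes. The value was positive in 50 genes and negative in 25, against 46.9% positive among all tested genes. This split rested on mouse B4M, since without that mouse 31 were positive and 44 negative and the median was -0.03. With library totals (Rn45s left out) in place of TMM scaling the split was 42 to 33.

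**Figure D1:**
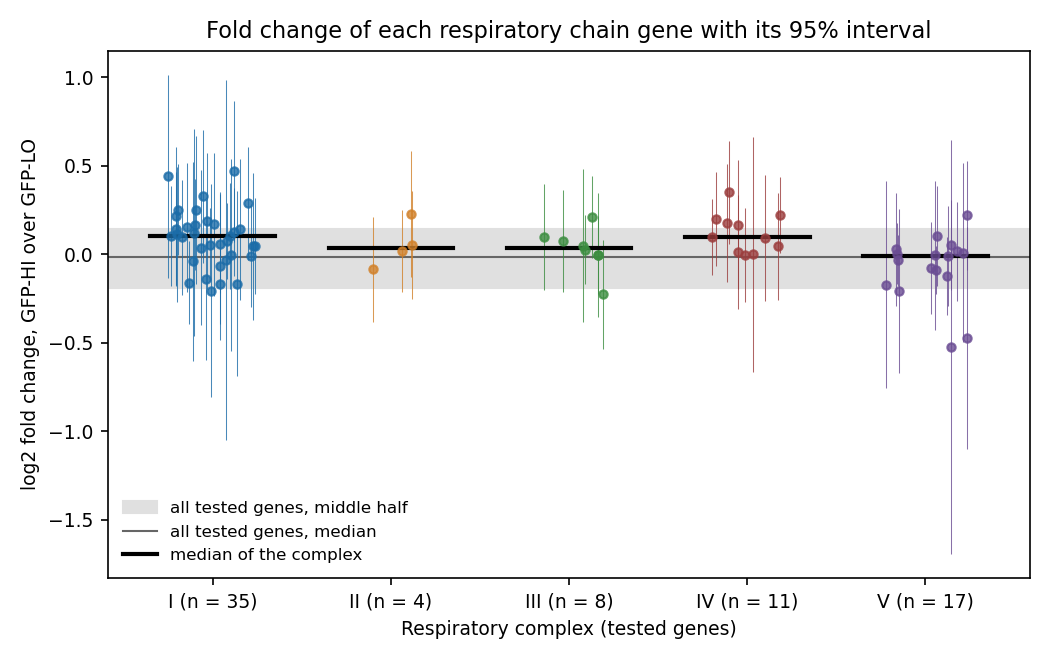
Each point is 1 tested respiratory chain gene, placed by complex, with its log2 fold change (GFP-HI over GFP-LO) on the y axis and its 95% interval from edgeR as a thin line; thick lines are complex medians, and the grey band spans the quartiles of all tested genes. The medians lie between -0.01 (complex V) and 0.10 (complexes I and IV), and all intervals but those of Ndufa5, Cox7a2 and Cox7a2l cross 0.

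Complex I oxidises NADH and is the largest of the chain. The median log2 fold change of its 35 tested genes was 0.10, with 25 positive and 10 negative. The 7 core subunits, which carry the flavin and iron-sulfur centres, had a median of 0.04 (4 positive, 3 negative). The 28 other names, counted as accessory subunits and including Ndufa4, had a median of 0.12 (21 positive, 7 negative). Ndufa5, an accessory subunit of the matrix arm, had the largest value of the whole set. It lies on the minus strand of chromosome 6 (chr6:24518666-24527687, mm10) with 549 exonic bases. Its GFP-HI libraries held 19.8, 20.6, 21.5, 13.0, 17.8 and 14.6 CPM in mice B1M, B3M, B4M, B5M, B7F and B7M. The GFP-LO libraries held 10.9, 15.7, 12.6, 11.2, 13.9 and 12.4 CPM in the same order. GFP-HI was the higher library in all 6 mice, but the ranges overlapped, because the GFP-HI libraries of B5M and B7M lay below the GFP-LO library of B3M. The mean was 17.9 ± 3.42 CPM against 12.8 ± 1.78 CPM (SD, n = 6 each). This is a log2 fold change of 0.47 ± 0.18 (SE; adjusted p = 0.61, edgeR). It was the only member higher in all 6 mice, and 0 were lower in all 6, against 3.34% and 2.6% of all tested genes.

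At the other end of complex I stood Ndufa3, an accessory subunit of the membrane arm. GFP-HI libraries ranged from 7.09 CPM (B7M) to 21.3 CPM (B4M) with a median of 11.1, and GFP-LO libraries from 11.3 CPM (B1M) to 19.4 CPM (B7F) with a median of 13.3. B1M and B4M were higher in GFP-HI and the other mice were lower, so the groups overlapped throughout. The log2 fold change was -0.21 with a 95% interval of -0.81 to 0.40 (adjusted p = 0.901, edgeR). The complex I names with the highest levels per exonic length were Ndufa6, Ndufa4 and Ndufb8. Ndufa6 averaged 63.9 ± 22.3 CPM in GFP-HI cells against 52.0 ± 11 CPM in GFP-LO cells, and its interval of -0.01 to 0.51 just included 0. Ndufa4 (interval -0.23 to 0.42) and Ndufb8 (interval -0.22 to 0.32) lay closer to 0.

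Short stretches of promoter are shown for the member with the largest difference, Ndufa5, and for a named member each of complexes III, IV and V, because they hold letters known from the control of this gene set. NRF1 and the ETS factor GABP are transcription factors known to bind promoters of many nuclear respiratory genes. RefSeq start sites (GRCm38.p6) were matched for 66 of the 83 symbols, each with 250 bases before and 50 bases after the start. The NRF1 palindrome (TGCGCA, then any base, then GCGCA), read on both strands, was in the windows of 5 of the 66 (Ndufa5, Ndufb4, Ndufs5, Sdha and Uqcrc1), or 7.58%, against 1.16% of 27025 genes in the same table. The ETS core CCGGAAG, read on both strands, was in 16 of the 66, or 24.2%, against 9.93% of those genes. No member held both. The 27025 genes were not limited to those tested here or matched to the members for level. In each stretch the capitals mark the match, and the sequence reads 5′ to 3′ on the minus strand, on which all of these genes lie:
Ndufa5 (chr6:24527682-24527741, palindrome): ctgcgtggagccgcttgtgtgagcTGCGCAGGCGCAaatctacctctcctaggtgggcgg
Uqcrh (chr4:116075071-116075130, ETS core): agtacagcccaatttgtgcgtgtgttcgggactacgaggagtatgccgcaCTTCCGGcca
Cox6a1 (chr5:115348959-115349018, ETS core): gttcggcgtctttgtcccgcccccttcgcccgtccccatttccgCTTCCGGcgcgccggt
Atp5j (chr16:84835004-84835063, ETS core): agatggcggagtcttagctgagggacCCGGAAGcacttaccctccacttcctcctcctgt
The matches are descriptions of letters, not of binding. The match of Ndufa5 begins 27 bases before one of its RefSeq starts and 191 bases before another, that of Uqcrh 10 bases, that of Cox6a1 16 bases and that of Atp5j 61 bases before the start.

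Complex II, the succinate dehydrogenase that also serves the citric acid cycle, is encoded wholly in the nucleus. The median log2 fold change of its 4 genes was 0.04. The membrane anchor Sdhd had the highest value of the 4. Its GFP-HI libraries ranged from 22.8 CPM (B7F) to 63.9 CPM (B1M) with a median of 32.7, and its GFP-LO libraries from 24.4 CPM (B5M) to 40.1 CPM (B3M) with a median of 32.2. The high GFP-HI values came from B1M and B3M, and the medians of the groups nearly coincided. The log2 fold change was 0.23 with an interval of -0.13 to 0.59. The iron-sulfur subunit Sdhb had the lowest value, -0.09 with an interval of -0.38 to 0.21, and was higher in GFP-HI in 3 mice and lower in 3. Sdhc, the other anchor, was at 0.05 (interval -0.25 to 0.36).

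Complex III moves electrons from ubiquinol to cytochrome c. Its 8 genes had a median of 0.04, with 5 positive and 3 negative. Uqcrh, the acidic hinge subunit that helps cytochrome c dock, held 145, 196, 139, 102, 129 and 89.0 CPM in GFP-HI libraries, beside 160, 121, 99.6, 98.8, 127 and 78.3 CPM in GFP-LO of B1M, B3M, B4M, B5M, B7F and B7M. All mice but B1M were higher in GFP-HI, yet the ranges overlapped for most of their length. The log2 fold change was 0.21 with an interval of -0.02 to 0.44 (adjusted p = 0.715, edgeR). Uqcrq, a small subunit next to cytochrome b, had the lowest value of the complex, -0.23 with an interval of -0.53 to 0.08, and was higher in GFP-HI only in B4M and B5M. The core protein gene Uqcrc1 was at 0.03 (interval -0.17 to 0.22), and Uqcr10 at 0.10 (interval -0.20 to 0.40).

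Complex IV, cytochrome c oxidase, reduces oxygen. Of its 11 tested genes, 10 had a positive value and 1, Cox6a1, a value of -0.00198, and the median was 0.10. Cox7a2, the isoform of subunit VIIa found in most tissues, held 93.1, 77.3, 98.0, 62.7, 60.0 and 49.4 CPM in GFP-HI, taking B1M, B3M, B4M, B5M, B7F and B7M in turn. In GFP-LO it held 56.2, 60.3, 51.7, 55.2, 65.7 and 47.8 CPM. The GFP-HI libraries of B1M, B3M and B4M stood above every GFP-LO library, whereas those of the other mice lay within the GFP-LO range. The mean was 73.4 ± 19.4 CPM against 56.2 ± 6.32 CPM (SD, n = 6 each), with 5 of 6 mice higher. This is a log2 fold change of 0.35 ± 0.14 (SE; adjusted p = 0.601, edgeR).

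Cox7a2l, the supercomplex factor of similar sequence, ranged from 70.6 CPM (B7M) to 125 CPM (B1M) in GFP-HI with a median of 97.9, and from 64.6 CPM (B5M) to 119 CPM (B1M) in GFP-LO with a median of 79.2. B1M was the highest mouse in both fractions, and the groups overlapped across most of the range. GFP-HI was higher in 5 of 6 mice. Its log2 fold change was 0.22 ± 0.10 (SE; adjusted p = 0.665, edgeR). The abundant subunits lay near 0: Cox4i1 at 0.10 (interval -0.11 to 0.31), Cox8a at 0.01 (interval -0.31 to 0.33) and Cox6a1 with an interval of -0.27 to 0.26.

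The isoforms of complex IV that are known from muscle, lung or testis had few counts, and 7 of the 18 complex IV genes went untested. Cox4i2, an isoform best known from lung, had 11 counts in all 12 libraries together, Cox6a2, a heart and muscle isoform, had 5, and Cox8b had 1. A count of 0 in a library allows up to 3 counts, or 0.258 to 0.433 CPM in these libraries, counting error only. Cox6b2, a testis isoform, had the most of the 7, 110 counts in all. Of these 31 came from the GFP-HI library of B4M, at 4.38 CPM, and the other 11 libraries held 0 to 1.84 CPM. It was named after its values were seen. Cox7a1, a heart and muscle isoform of subunit VIIa, had 53 counts in all. It was at 0 to 0.144 CPM in both libraries of B1M, B3M and B4M, and at 0.587 to 1.32 CPM in both libraries of B5M, B7F and B7M. The difference thus followed the mice and not the fractions. The 5 skeletal muscle markers summed to at most 9.74 CPM in any library, and their part in this was not tested.

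Complex V makes ATP from the proton gradient. Its 17 tested genes had the lowest median of the 5 complexes, -0.01, with 7 positive and 10 negative. The 5 genes of the catalytic head and central stalk had a median of -0.03, with 1 positive. The catalytic beta subunit Atp5b ranged from 437 CPM (B7F) to 633 CPM (B3M) in GFP-HI and from 444 CPM (B7M) to 711 CPM (B1M) in GFP-LO, with a median of 534 in both. The ranges overlapped almost fully, and its log2 fold change was -0.03 with an interval of -0.18 to 0.11. The alpha subunit Atp5a1 averaged 404 ± 33.0 CPM in GFP-HI cells against 430 ± 39.5 CPM in GFP-LO cells, a log2 fold change of -0.09 with an interval of -0.22 to 0.05.

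Atp5j, a coupling factor of the peripheral stalk, had the highest value of complex V. It ranged from 37.9 CPM (B1M) to 70.9 CPM (B4M) in GFP-HI with a median of 45.4, and from 34.6 CPM (B7M) to 50.7 CPM (B3M) in GFP-LO with a median of 43.6. B3M and B4M held the high GFP-HI values, and the remaining libraries overlapped. The log2 fold change was 0.22 with an interval of -0.09 to 0.53. Of its exonic bases 16.2% also belong to Gabpa on the opposite strand, and the strand setting of the counts is not given in the sources used here. Atp5l, subunit g of the membrane part, held 17.2, 2.89, 14.3, 7.81, 4.74 and 5.39 CPM in GFP-HI libraries, beside 30.0, 4.98, 8.96, 8.26, 14.1 and 6.63 CPM in GFP-LO of B1M, B3M, B4M, B5M, B7F and B7M. All mice but B4M were lower in GFP-HI, while mice spanned 2.89 to 17.2 CPM within GFP-HI alone. The log2 fold change was -0.47 with an interval of -1.10 to 0.16 (adjusted p = 0.781, edgeR). Atp5l has 9 near-identical copies in the annotation, which makes its count uncertain.

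Levels per exonic length spanned a wide range within the set. Levels between genes are given as CPM per kilobase of the table's exonic length, which joins the exons of all annotated transcripts. Over the mean of the 12 libraries Cox4i1 led, with 310 ± 89.8 in GFP-HI cells against 284 ± 64.1 in GFP-LO cells (SD, n = 6), followed by Atp5b with 285 ± 50.2 and 292 ± 51.9 and Uqcrh with 244 ± 68.8 and 209 ± 52.1. In GFP-LO alone Atp5b stood above Cox4i1, and the spread of each of these genes overlaps that of the next. Tested members of complex IV had the highest median, 85.9 CPM per kilobase, followed by complex III at 70.0, complex V at 62.4, complex I at 39.7 and complex II at 35.1. The lowest tested levels were those of Atp5s, 2.12, and Atp5sl, 3.25, neither of which encodes a subunit. Subunit c, whose ring turns in the membrane, is made from 3 genes with the same mature product. Atp5g3 was at 124 CPM per kilobase as a mean of the 12 libraries, against 21.2 for Atp5g2 and 15.3 for Atp5g1. Atp5g2 has 2 near-identical copies in the annotation and Atp5g1 has 1, which makes their counts uncertain, whereas Atp5g3 has 0. The log2 fold changes of Atp5g3, Atp5g2 and Atp5g1 were 0.02 (interval -0.26 to 0.30), -0.21 (interval -0.67 to 0.26) and 0.01 (interval -0.50 to 0.52).

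Counts of several members share sequence with other genes. The transcripts of 12 of 82 members searched matched another annotated gene at 95% identity or more over at least 50% of their length, among them Atp5g1, Atp5g2, Atp5l, Uqcrb and Cox7c. The 11 of these that were tested had a median level of 35.2 CPM per kilobase, against 54.3 for the 63 without such a copy. Ndufs5, an iron-sulfur protein family member of complex I, had only 2 counts in all 12 libraries. Of its 509 exonic bases 484 are also annotated to BC002163 on the same strand, and BC002163 held 133 to 289 counts per library. The near-absence of Ndufs5 counts is therefore not a measurement of its level. Ndufs1 shares 67.8% of its exonic bases with Gm11602 on the opposite strand.

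Summed over its members, each complex had a mean log2 difference within mice smaller than the SD of that difference. The summed CPM of all 83 genes was 5312, 5027, 5325, 3529, 3746 and 3264 in the GFP-HI libraries of B1M, B3M, B4M, B5M, B7F and B7M. The GFP-LO sums were 5382, 4643, 4115, 3558, 4198 and 3318. B3M and B4M were higher in GFP-HI and the other mice were lower or nearly equal, with log2 differences of -0.02, 0.11, 0.37, -0.01, -0.16 and -0.02. The means were 4367 ± 954 CPM and 4202 ± 747 CPM (SD, n = 6 each). Complex I summed to 1201 ± 293 CPM in GFP-HI cells against 1119 ± 214 CPM in GFP-LO cells, and complex II to 204 ± 47.1 and 194 ± 30.2 CPM. Complex III summed to 629 ± 155 and 598 ± 102 CPM, complex IV to 768 ± 216 and 692 ± 168 CPM, and complex V to 1565 ± 256 and 1598 ± 258 CPM. The fractions of every complex overlapped. These SDs are of levels between mice. Within mice the log2 difference averaged 0.09 ± 0.22 in complex I, 0.05 ± 0.20 in II and 0.05 ± 0.21 in III (SD, n = 6). It averaged 0.13 ± 0.27 in IV and -0.03 ± 0.13 in V. The sum was higher in GFP-HI in 4, 4, 3, 5 and 1 of the 6 mice for complexes I to V.

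**Figure D2:**
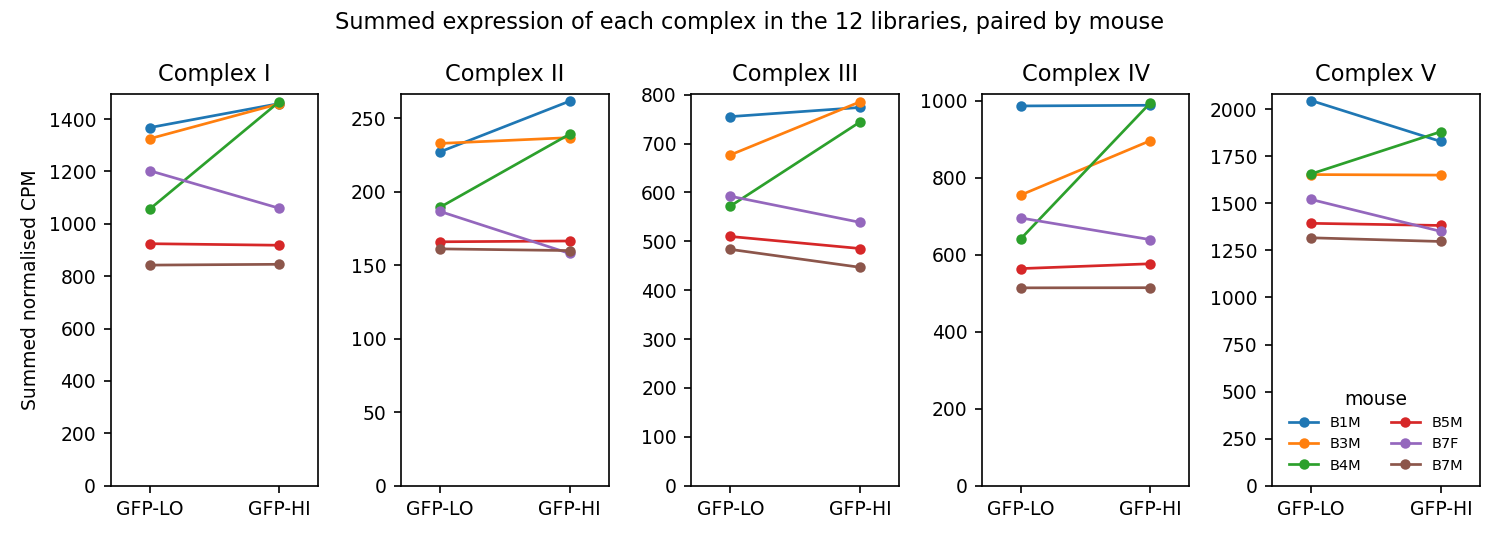
The y axis of each panel gives the summed normalised CPM of 1 complex, with a line per mouse joining its GFP-LO and GFP-HI libraries. The line of B4M slopes up and that of B7F down in all 5 panels.

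Mice contributed unequally to the small positive shift. The median within-mouse log2 difference of the 75 genes, taking B1M, B3M, B4M, B5M, B7F and B7M in turn, was 0.07, 0.11, 0.51, 0.03, -0.15 and -0.01, a mean of 0.09 ± 0.22 (SD, n = 6). GFP-HI was the higher library for 70 of the 75 genes in B4M, for 17 in B7F and for 37 to 47 in the other mice. B4M was therefore the one mouse in which nearly the whole chain read higher in GFP-HI, and B7F was the one with the fewest genes higher. Of all 11719 tested genes, 5890 were higher in GFP-HI in B4M and 5868 in B7F. Other short genes leaned as the chain did: of 846 of at most 1000 bases, clustered histone genes left out, 624 were higher in B4M and 288 in B7F. Of 74 cytosolic ribosomal protein genes 62 and 18 were higher, and of 76 mitochondrial ones 59 and 21. Without B4M the complex medians were 0.02 for complex I, -0.03 for II, -0.04 for III, 0.0046 for IV and -0.10 for V. Complex V had a negative median in every mouse but B4M, from -0.08 in B7M and B5M to -0.25 in B1M, and was at 0.41 in B4M. In complex IV the median was 0.57 in B4M, 0.33 in B3M and between -0.07 and 0.07 in the remaining mice. The high Rn45s shares of B4M move with its result, and their part in it was not tested.

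Respiratory chain genes are short, and length was related to the differences mainly in B4M. The 75 tested genes had a median exonic length of 681 bases, against 2892 for all tested genes, and 66 of them fell in the shortest of 5 equal classes (42 to 1616 bases). Across the 75 genes the fold change had a Spearman correlation of -0.14 with length (Pearson -0.20 on log length), and across the 11644 other tested genes of -0.02. These are descriptions across genes that share libraries, not tests. By complex the Spearman value was -0.20 in I (n = 35), -0.05 in III (n = 8), 0.61 in IV (n = 11) and -0.32 in V (n = 17), so the complexes had no common direction. Within B4M the correlation was -0.52 for the 75 genes and -0.26 for the others. Without B4M it was -0.0044 across the set.

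Length classes put the set beside genes of like size. The 49 members of at most 1000 bases had a median fold change (log2) of 0.05 with 71.4% positive, and the 26 longer members 0.02 with 57.7% positive. Among other tested genes of at most 1000 bases, leaving out clustered histone genes, 846 had a median of 0.07 with 60.5% positive. With the histone genes included, 892 had a median of 0.08 with 62.4% positive. The 10752 longer other genes had a median of -0.03 with 45.5% positive. The medians of short members and other short genes were thus close at this limit, while the share of positive values was higher among members. In the class of 42 to 1616 bases, histone genes included, the 66 members had a median of 0.06 with 69.7% positive, and 2278 other genes a median of 0.02 with 52.7% positive. In B4M, at the limit of 1000 bases, the medians were 0.62 for short and 0.31 for long members. Other short genes without clustered histone genes were at 0.31 and other long genes at -0.02. When the fit included offsets that follow each library's trend with length, 35 of the 75 values were positive and 40 negative, the median was -0.01, and 0 genes were called.

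**Figure D3:**
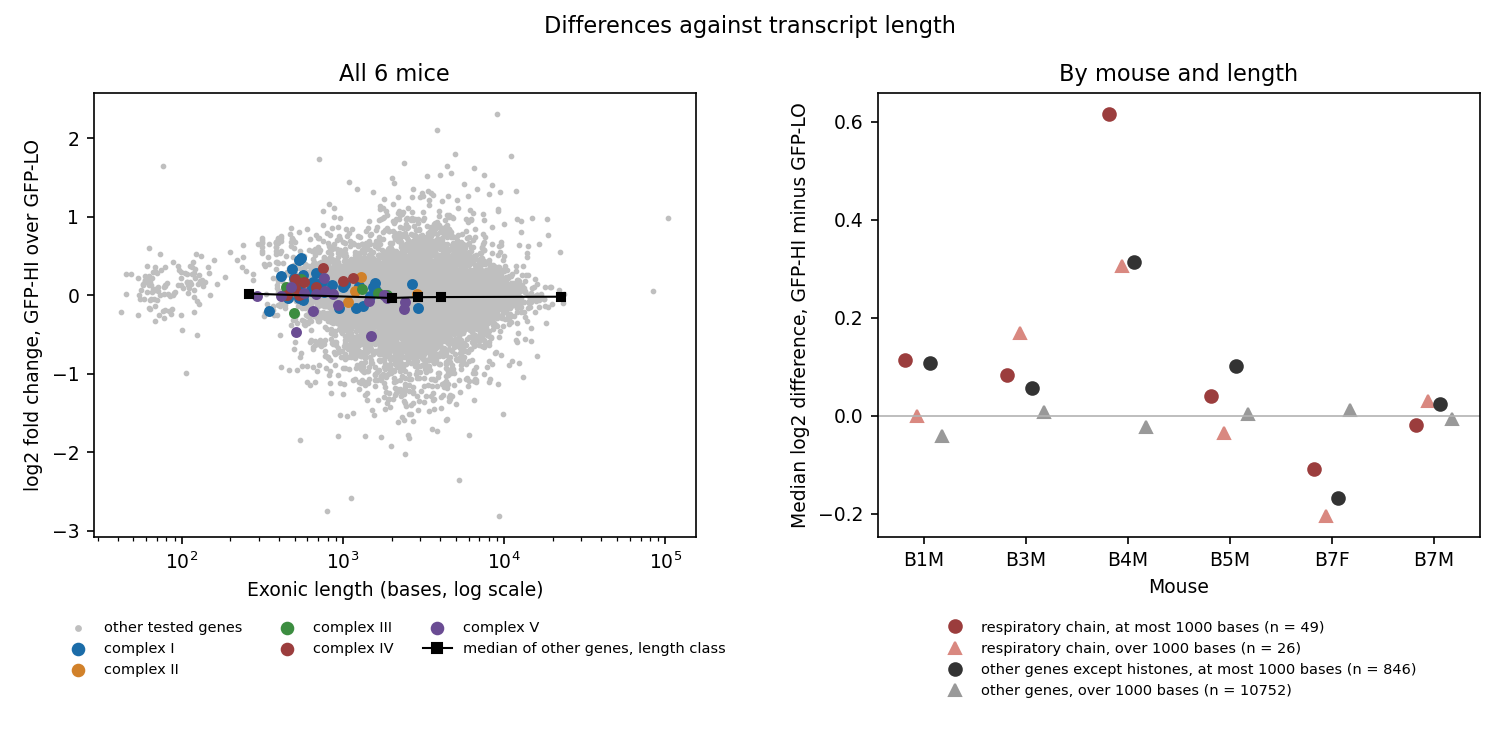
Left, the log2 fold change of every tested gene against its exonic length in bases on a log axis, with respiratory chain genes coloured by complex and black squares giving the median of other genes in 5 length classes. Right, the median log2 difference within each mouse for short and long genes; in B4M the short respiratory chain genes are at 0.62, and in the other mice all 4 medians lie between -0.21 and 0.17.

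The level of the chain, averaged over both fractions, differed between mice. For each gene the mean log2 CPM of a mouse over its GFP-HI and GFP-LO libraries was set against the mean of the 6 mice (given in the order B1M, B3M, B4M, B5M, B7F, B7M). In that order of mice the median of the 75 genes was 0.32, 0.19, 0.17, -0.30, -0.05 and -0.43. B1M, B3M and B4M lay above the mean for 65, 62 and 61 of the genes, and B5M and B7M for 2 and 3. The medians of all tested genes ran from -0.035 in B1M to 0.026 in B7F. Every complex had the same order of signs for B1M, B3M, B4M, B5M and B7M. Complex IV spanned the widest range of medians, from 0.52 in B1M to -0.47 in B7M, and complex V had the lowest median in B1M, 0.24.

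Some members varied much more. Cox5b, a subunit that surrounds the catalytic core of complex IV, held 58.0, 53.7, 21.9, 10.1, 14.6 and 14.6 CPM in GFP-HI libraries, beside 44.0, 31.1, 18.8, 12.9, 14.7 and 16 CPM in GFP-LO of B1M, B3M, B4M, B5M, B7F and B7M. The libraries of B1M and B3M stood above those of the other mice in both fractions. Uqcrb, the ubiquinone-binding subunit of complex III, showed the same for B1M, with 56.6 and 48.5 CPM in its GFP-HI and GFP-LO libraries against 10.5 to 39.1 CPM elsewhere. Both genes were named after their values were seen, as the members with a large spread between mice, and Uqcrb has 3 near-identical copies. The median SD between mice was 0.347 log2 units for the 75 genes and 0.331 for all tested genes, which were not matched to them for level (median 43.5 CPM against 17.5 CPM).

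**Figure D4:**
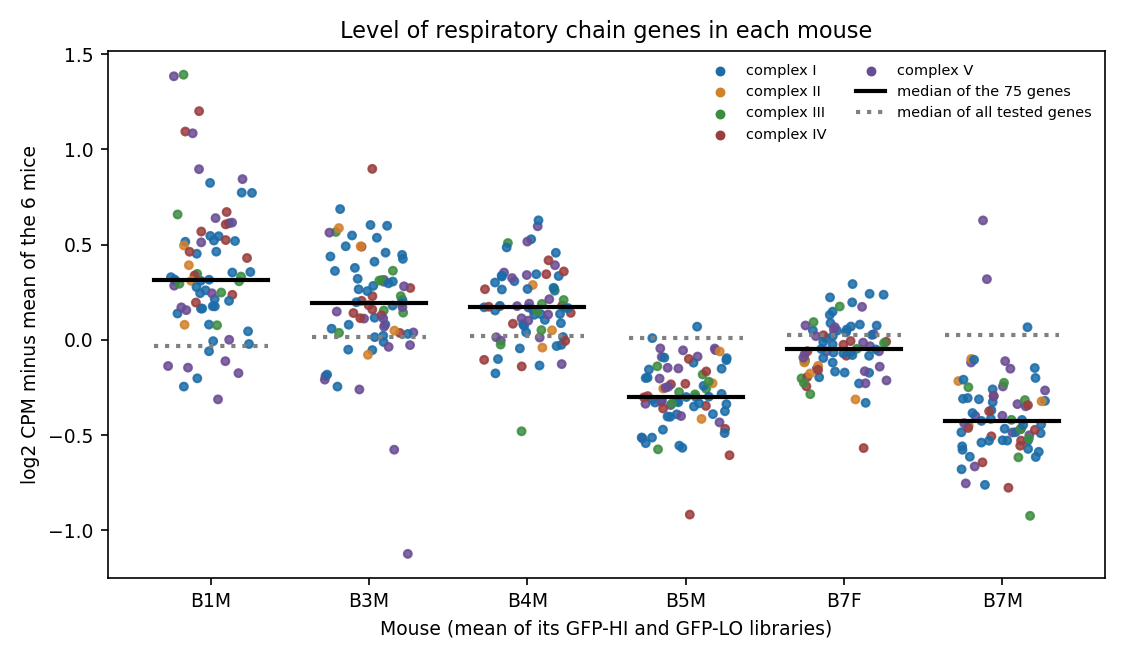
Each point is 1 tested respiratory chain gene, with the y axis giving the mean log2 CPM of that mouse's GFP-HI and GFP-LO libraries minus the mean of the 6 mice. Black bars mark the median of the 75 genes, from 0.32 in B1M to -0.43 in B7M. Dotted bars mark the median of all tested genes, from -0.035 in B1M to 0.026 in B7F.

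Other short genes moved with the mice too. Deviations of other genes of at most 1000 bases, leaving out clustered histone genes, had medians of 0.14, 0.11, 0.20, -0.20, 0.07 and -0.25 in B1M, B3M, B4M, B5M, B7F and B7M. Cytosolic ribosomal protein genes had medians of 0.79, 0.42, -0.07, -0.50, -0.11 and -0.46, farther from 0 in B1M, B3M, B5M and B7M and of the other sign in B4M and B7F. Mitochondrial ribosomal protein genes were at 0.23, 0.20, 0.15, -0.25, 0.00 and -0.30. Across the 75 genes the deviation in B7M had a Spearman correlation of 0.59 with length, beside 0.35 across other genes. The number of detected genes was lowest in B1M and B3M, and neither its part nor that of length was tested.

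Genes around the chain were counted from lists of related functions, and edgeR called 0 genes in any of them. Assembly factors, which build the complexes, were 9 positive and 29 negative of 38 tested, with a median of -0.10. Mice differed in sign here. The within-mouse medians were -0.67, -0.15, 0.21, -0.05, -0.09 and 0.07 in B1M, B3M, B4M, B5M, B7F and B7M. GFP-HI was the higher library for 26 of the 38 in B4M, 23 in B7M and 14 to 18 in the other mice. Taco1, which helps translate a mitochondrially encoded subunit of complex IV, was at -0.96 (adjusted p = 0.639, edgeR), and Cox11, a copper chaperone, at -0.74 (adjusted p = 0.743, edgeR). Genes of protein import and inner membrane organisation were 7 positive and 18 negative of 25, with a median of -0.12, among them Tomm5 at 0.56 and Timm10 at -1.11. Regulators of mitochondrial biogenesis and of mitochondrial DNA were 5 positive and 12 negative of 17, with a median of -0.18, led by Tefm at -0.86 and Gabpb1, a partner of the ETS factor Gabpa, at -0.26. Mitochondrial ribosomal protein genes were 35 positive and 41 negative of 76, with a median of -0.03, including Mrpl4 at -0.55 and Mrps23 at 0.57.

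Genes of fuel handling and of membrane transport were counted in the same way. Of the citric acid cycle and pyruvate dehydrogenase, 10 genes were positive and 8 negative with a median of 0.03. Dlst, a subunit of the oxoglutarate dehydrogenase complex, averaged 45.2 ± 9.44 CPM in GFP-HI cells against 55.8 ± 6.37 CPM in GFP-LO cells (SD, n = 6) and was lower in GFP-HI in all 6 mice, with a log2 fold change of -0.32 (edgeR adjusted p = 0.46). Idh3a was at -0.27. Of 16 glycolytic genes 9 were positive and 7 negative with a median of 0.02; the glucose transporter gene Slc2a1 was at -0.18 and hexokinase 2 (Hk2) at -0.84 (adjusted p = 0.689, edgeR). Carriers and uncoupling genes were 6 positive and 1 negative of 7, with a median of 0.06. Ucp2, an inner membrane carrier of the uncoupling protein family, averaged 268 ± 33.6 CPM against 225 ± 36.6 CPM and was higher in GFP-HI in all 6 mice, with a log2 fold change of 0.25 (edgeR adjusted p = 0.399), and Slc25a3, the phosphate carrier, was at 0.13.

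No gene of the remaining lists was called. Mitochondrial antioxidant genes were 3 positive and 5 negative of 8 with a median of -0.04, including Gpx4 at 0.40 and Gpx1 at 0.13. Structural genes of the chain outside the name rule, such as the electron carrier Cycs at 0.26 and Usmg5 at 0.49, were 4 positive and 2 negative of 6. The lowest of them was Ndufab1, the mitochondrial acyl carrier protein, at -0.79 with an interval of -2.03 to 0.45, named after its value was seen. Cytosolic ribosomal protein genes, which are as short as the respiratory chain genes with a median of 706.5 exonic bases, were 59 positive and 15 negative of 74 with a median of 0.09, and Rps20 came nearest to the threshold at 0.28 (edgeR adjusted p = 0.118). None of these lists was compared with another by a test.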

How the data were processed

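RNA of 200 to 1000 sorted cells per library was made into libraries with the NuGEN SoLo kit, per the labels' protocols. The deposited table holds whole-number read counts per gene for 12 libraries, which the authors did not normalise. Per the submitters' processing notes, the tools were featureCounts, DESeq2, R 3.4.1, FastQC and bcl2fastq 2.20.0, and the genome build was mm10 (GRCm38). Per the file headers, each gene has exon intervals, strand and exonic length. How reads were aligned, whether strand was used and how reads with several matches were counted is not given in the sources used here.

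Members, gene lists and tests were chosen with earlier results of these data known. Counts were fitted for the whole table in edgeR 4.0.16 (R 4.3.3, limma 3.58.1) with TMM factors, genes kept by filterByExpr (minimum count 10, minimum total 15), mouse as a block, robust quasi-likelihood, two-sided tests and Benjamini-Hochberg adjustment over 11719 genes at 0.05. Standard errors and 95% intervals come from the same fit. Within-mouse differences use log2 CPM with a prior count of 2. The script was tested on simulated data with 200 changed genes.

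The mouse block rests on the animal codes in the titles and the series' word that samples are matched. As a check, the deviations of both libraries of a mouse from their group means correlated across genes at 0.225 to 0.494. Each value was above the correlations of that mouse's libraries with the opposite fraction of any other mouse (at most 0.257). Libraries of the same fraction were not compared between mice.

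Genes named in the text are, in each complex, the 3 with the highest CPM per kilobase and those with the largest and smallest fold change among members of at least 5 CPM, the 3 members with the smallest p, pairs of isoforms, and the 2 genes with the smallest p of each list. Others are said to be chosen after their values were seen or are named for a count, an overlap or a copy. Copies were searched with blastn 2.17.0 against annotated transcripts; the minimum coverage of 50% was set after seeing the matches. Alternatives were no mouse block, DESeq2 1.42.0, RLE factors, library totals without Rn45s, no filter, CPM of at least 1 in 6 libraries, offsets following a loess trend with length (span 0.5), and leaving out mice.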

Additional observations from a re-analysis of the deposited data

Results flagged for a closer look

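In groups of 6 libraries, 60 groups of named members were checked for a library far from the others, and 2 had one; chance gives about 1 in 20. Atp5l in the GFP-LO library of B1M was at 30.0 CPM, with the other GFP-LO libraries at 4.98 to 14.1 CPM. Cox8a in the same library was at 118 CPM, with the others at 57.2 to 74.0 CPM.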

How the results depend on the processing

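Under the 14 alternatives, 0 members were called in either direction. Named members changed sign 42 times, and no fit called any of them. Summary values, which are not in that number, also crossed 0. The median of the set was -0.0285 without B4M and -0.00561 with length-trend offsets. Without B4M complex II was at -0.0262 and complex III at -0.0357. Without B1M complex III was at -0.00490 and complex V at 0.00125, and without B1M and B3M together complex V was at 0.00797. Without the replicate block, Cox6a1 was at 0.0187 and Cox8a at -0.00100, and no gene of the whole table was called, against 55 higher and 7 lower with mice paired. For the whole table DESeq2 called 120 higher and 23 lower, the fit without a filter 127 and 45, the fit without B1M and B3M together 117 and 34, and fits without 1 mouse 29 (B3M) to 81 (B1M) higher and 2 (B4M) to 14 (B1M) lower. Cox6a1 was at 0.00602 with DESeq2 and 0.00598 with RLE factors. With library totals, Atp5g1 was at -0.0225, Atp5g3 at -0.0168, Cox8a at -0.0205 and Uqcrc1 at -0.00678. Without a filter, Atp5g1 was at -0.00354 and Cox8a at -0.00122. With length-trend offsets, Atp5g1 was at -0.0433, Atp5g3 at -0.0633, Cox8a at -0.0832, Ndufa4 at -0.00561, Ndufb8 at -0.0379 and Uqcr10 at -0.00813. The Spearman correlation of the members with length was then 0.127 in place of -0.139. The offsets follow the trend of all tested genes in each library, so for the members the correlation changed sign and did not vanish. Without B1M and B3M together, Cox6a1 was at 0.0585, Ndufb8 at -0.0225, Sdhb at 0.0264, Sdhc at -0.0438, Sdhd at -0.000433 and Uqcrc1 at -0.0865. Leaving out 1 mouse at a time, the length correlation ran from -0.320 (without B3M) to -0.00437 (without B4M), Atp5b from -0.0656 to 0.0111, Atp5g1 from -0.181 to 0.114, Atp5g3 from -0.0933 to 0.106, Cox6a1 from -0.108 to 0.0811 and Cox8a from -0.122 to 0.181. Ndufa4 ran from -0.0285 to 0.227, Ndufb8 from -0.00924 to 0.172, Sdhb from -0.207 to 0.0364, Sdhc from -0.0747 to 0.131 and Uqcrc1 from -0.0226 to 0.0895. With all 12 libraries, 8 of the 83 members had too few counts to be tested.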
